A study of Sus scrofa with 30 samples.

Results

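De novo fatty acid synthesis in the sow mammary gland was followed through 10 genes, picked by name for their place in the pathway: FASN, ACACA, ACLY, SCD, ELOVL6, ACSS2, THRSP, SREBF1, INSIG1 and ME1. Transcripts were assigned to genes by the Sscrofa11.1 RefSeq annotation, and all transcripts of a gene in the table were added up to a gene sum. This gave 9 of the 10 genes with 17 transcripts, out of 26012 genes and loci and 61773 transcripts in all. No row carried the 1 RefSeq transcript of ME1, the cytosolic malic enzyme that yields NADPH, and its expression was not analysed here.

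The pathway makes fatty acids from small carbon units in the cytosol. Acetyl-CoA comes from citrate by ACLY, the ATP citrate lyase, or from acetate by ACSS2, the cytosolic acetyl-CoA synthetase. ACACA, the acetyl-CoA carboxylase, turns it into malonyl-CoA in the committed step, FASN joins these units into palmitate, ELOVL6 lengthens palmitate and SCD adds the first double bond. SREBF1 encodes the transcription factor SREBP-1, which activates many of these genes. INSIG1 retains SREBP in the endoplasmic reticulum and is itself an SREBP target, and THRSP, the Spot 14 protein, promotes lipogenesis in liver, adipose and mammary tissue. In the lactating gland these enzymes feed the synthesis of milk fat.

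Bulk RNA was sequenced from mammary parenchyma of 30 multiparous, half-sibling crossbred sows (Danish Landrace × Yorkshire), 6 at each of 5 stages. These were day 70 of gestation (MG, mid-gestation), day 110 of gestation (LG, late gestation), day 2 postpartum (EL, early lactation), day 10 postpartum (PL, peak lactation) and day 2 after weaning (W2). All animals shared the same cross, housing and sampling site in the left gland, no treatment or allele is recorded, and each stage came from different sows. The genes were measured in whole tissue, so that fewer cells of a type and less RNA per cell cannot be told apart in any value below.

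Samples titled EL carry mid-gestation as the stage in their records, and those titled MG carry early lactation. The titles were followed, as the sample lists of the study do; if the records were right, MG and EL would change places in every sentence. Under the titles, the 6 milk protein genes (CSN1S1, CSN1S2, CSN2, CSN3, LALBA, WAP) added up to 11906 to 29461 units in MG and 63857 to 120785 units in EL. Values are called units. They are named FPKM by the authors, but they added up to 997480 to 1002643 per sample, as TPM values do. They are thus corrected for transcript length. Levels can be compared between genes only for the annotated transcripts in the table, so that each gene sum is a lower limit. The table holds no reads, so the depth behind a value is unknown and its error was taken from the spread between samples.

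At each stage, 3 of the 6 deposited samples hardly differed from one another, by a median of at most 1.80% to 1.85%, and lay within 0.689% to 0.741% of the mean of the other 3. Only the latter were counted, which left n = 3 per stage: MG 1, 3 and 6, LG 1, 3 and 4, EL 3, 4 and 6, PL 2, 3 and 6, and W2 2, 3 and 6. Values are given in that order. PL 2 stood apart: its milk protein sum was 285004 units against 138798 in PL 3 and 91237 in PL 6, and its factor under median ratio scaling was 0.566 against 0.836 to 1.28 in the other 14 samples. Calls among the members are therefore given with and without PL 2. Over all genes, the median log2 fold change was -0.57 in PL vs MG, -0.22 in PL vs EL and 0.68 in W2 vs PL, and median ratio scaling brought these medians to -0.052, 0.00034 and 0.093. Calls among the members are given on both scales.

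Calls among the lipogenic genes were made in the comparisons with peak lactation only, and they ran in both directions. Against mid-gestation, 3 of the 9 genes rose in PL, namely INSIG1, SCD and ELOVL6, where 2.23% of all genes rose, and 1 fell, ACSS2, where 23% of all genes fell. Against early lactation, INSIG1 rose, where 0.777% of all genes did, and ACSS2 and SREBF1 fell, where 3.85% of all genes did. From PL to W2, INSIG1, SCD and ELOVL6 fell, where 2.48% of all genes fell, and ACSS2 and SREBF1 rose, where 30.4% of all genes rose. The median log2 fold change of the 9 genes was 0.87 in PL vs MG, 1.10 in PL vs EL and -1.37 in W2 vs PL, and without PL 2 it was 0.287, 0.404 and -0.333. FASN, ACACA, ACLY and THRSP passed the test in none of these comparisons. Calls are limma's, with adjusted p below 0.05 over all genes.

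With median ratio scaling, the genes that rose at PL remained and 4 of the 5 calls of ACSS2 and SREBF1 were lost. In PL vs MG, 3 members were higher (INSIG1, SCD, ELOVL6) and 0 lower, against 5.04% and 5.97% of all genes. In PL vs EL, 2 were higher (INSIG1, ELOVL6) and 1 lower (ACSS2), against 2.54% and 2.71%. In W2 vs PL, 0 were higher and 4 lower (INSIG1, SCD, ELOVL6, ACLY), against 7.42% and 5.66%.

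The other comparisons tested gave no call. From MG to LG, from LG to EL and between W2 and MG, 0 of the 9 genes passed limma's test, with 1, 0 and 0 below an unadjusted p of 0.05. Over all genes 0.0115%, 0.0154% and 0.0115% were called in these comparisons. The gene below that unadjusted p was SREBF1, with 231 ± 20.8 units (SD, n = 3) in LG and 159 ± 20.8 in MG, a log2 difference of 0.54 (SE 0.23) and a limma adjusted p of 1. A single comparison of 3 samples with 3 cannot go below p = 0.10 in an exact two-sided permutation test.

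**Figure D1:**
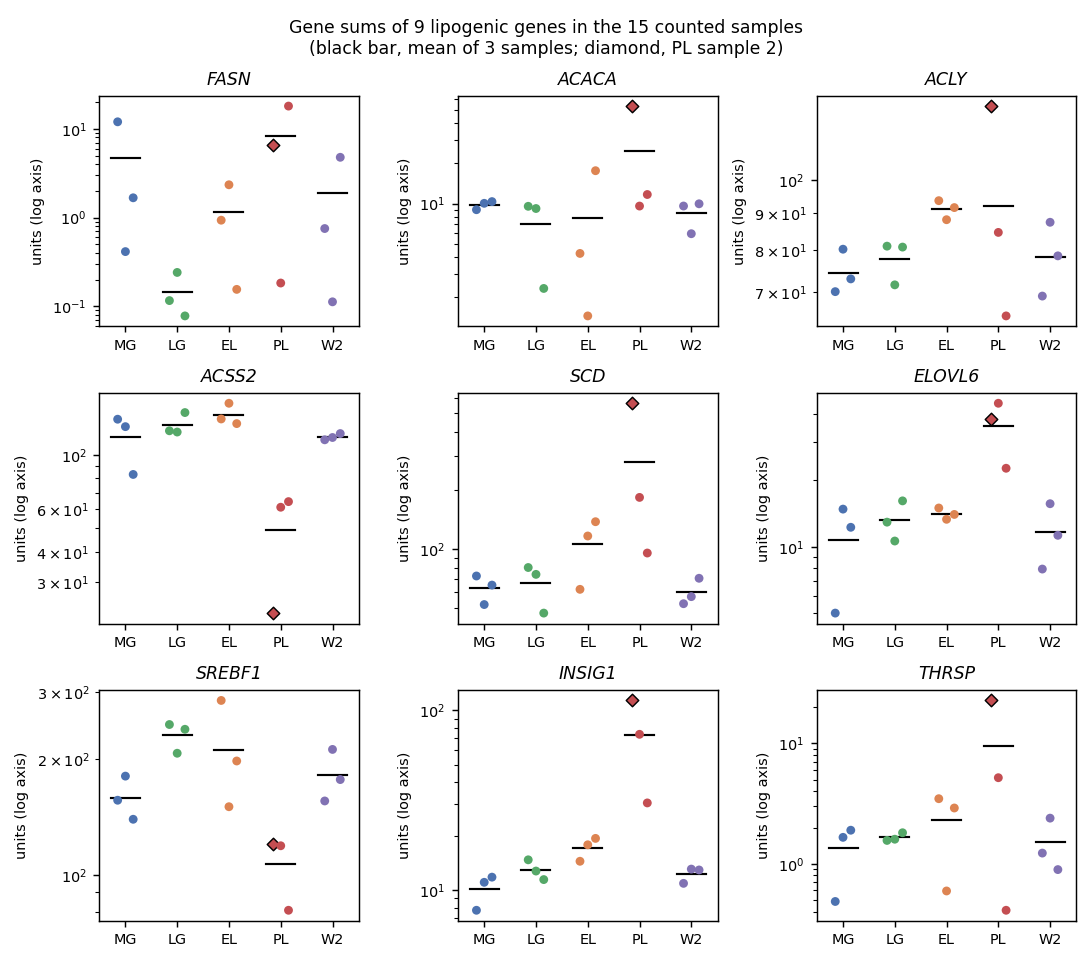
Gene sums in units on a log axis, 1 point for each of the 15 counted samples, with a black bar at the mean of each stage and a diamond for PL 2. All 3 PL samples lie above the other 12 for ELOVL6 and INSIG1 and below them for ACSS2 and SREBF1, while the PL points of FASN run from 0.183 to 18.1 units.

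All 3 PL samples lay above the 12 other samples for ELOVL6 and INSIG1, as they did for 1.1% of all genes, and below them for ACSS2 and SREBF1, as they did for 11.3%. For the other 5 members PL overlapped the other stages. PL 2 held the highest of the 15 values for 5 members (ACACA, ACLY, SCD, THRSP, INSIG1) and the lowest for ACSS2, and PL 6 held the lowest for 3 (ACLY, THRSP, SREBF1) and the highest for FASN.

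Of the 2 sources of acetyl-CoA, ACLY (gene ID 100125957, chromosome 12, 20796678 to 20841301, Sscrofa11.1) was measured through 4 of its 6 RefSeq transcripts. Its sum was 70.0, 80.2 and 73.0 units in MG, 81.0, 71.6 and 80.8 in LG, and 93.7, 88.2 and 91.7 in EL. In PL it was 126.9, 84.7 and 64.8 units, and in W2 69.1, 87.5 and 78.5. ACLY thus ranged from 70.0 to 93.7 units in MG, LG and EL, and at PL it held both the highest and the lowest of the 15 values. Its log2 fold change was 0.25 (SE 0.20) in PL vs MG, with a limma adjusted p of 0.38, and -0.18 (SE 0.20) in W2 vs PL, with 0.50. With median ratio scaling, ACLY fell from PL to W2 by 0.92 on the log2 scale (SE 0.28, adjusted p 0.0493).

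ACSS2 (gene ID 100153866, chromosome 17, 38260152 to 38315764) was lower at PL than at any other stage. Its sum was 140.0, 130.5 and 83.1 units in MG, 125.5, 124.0 and 149 in LG, and 140.3, 162.7 and 134.3 in EL. In PL it was 22.4, 61.0 and 64.3 units, and in W2 115.2, 117.8 and 122.2. The highest PL value lay below the lowest value of any other stage, and the W2 samples lay within the range of MG. ACSS2 fell by 1.70 on the log2 scale in PL vs EL (SE 0.33, limma adjusted p 0.0128) and by 1.36 in PL vs MG (SE 0.33, 0.0115), and rose by 1.40 in W2 vs PL (SE 0.33, 0.0071). Without PL 2, whose value was the lowest, the differences were -1.21, -0.87 and 0.91, and all 3 calls held (adjusted p 0.0032, 0.0093 and 0.0057). Without EL 3 the call in PL vs EL was lost (-1.72, adjusted p 0.0525). With median ratio scaling the fall in PL vs EL held (-1.36, adjusted p 0.0089), whereas PL vs MG (-0.70, 0.094) and W2 vs PL (0.66, 0.10) missed the threshold.

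FASN (gene ID 397561, chromosome 12, 922405 to 937560), with 1 RefSeq transcript, had the lowest or next to lowest mean gene sum of the 9 genes in every stage and the largest SE. Its values were 12.0, 0.414 and 1.67 units in MG, 0.116, 0.241 and 0.0781 in LG, and 0.936, 2.35 and 0.156 in EL. In PL they were 6.63, 0.183 and 18.1 units, and in W2 0.754, 0.113 and 4.78. MG, EL, PL and W2 each held samples that were far apart, and in LG all 3 values were low. PL 6, MG 1 and PL 2 were the 3 highest. The log2 fold change of FASN was 0.62 (SE 1.21) in PL vs MG, 1.69 (SE 1.21) in PL vs EL and -1.49 (SE 1.21) in W2 vs PL, with limma adjusted p values of 0.75, 0.50 and 0.37. The difference between LG and MG was -2.19 (SE 1.21, adjusted p 1). Differences of this size in FASN were not detectable with n = 3.

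ACACA (gene ID 397324, chromosome 12, 38580916 to 38875067) had 1 of its 12 RefSeq transcripts in the table, so most of its annotated isoforms are outside this value. It stood at 9.02, 10.1 and 10.4 units in MG, 9.56, 9.20 and 2.33 in LG, and 4.26, 1.46 and 17.6 in EL. In PL it stood at 53.4, 9.60 and 11.7 units, and in W2 at 9.61, 5.97 and 9.98. Apart from PL 2, the PL values lay within the range of EL. The log2 fold change was 1.77 (SE 0.79) in PL vs EL, with a limma adjusted p of 0.25, and -1.09 (SE 0.79) in W2 vs PL, with 0.31. Without PL 2 these became 1.01 and -0.33 (adjusted p 0.55 and 0.80).

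SCD (gene ID 396670, chromosome 14, 111461560 to 111478033) had a sum of 72.7, 51.8 and 65.3 units in MG, 80.3, 74.1 and 46.9 in LG, and 62.1, 116.6 and 138.1 in EL. In PL the sum was 560.7, 184.1 and 95.4 units, and in W2 52.4, 56.9 and 70.7. All PL samples lay above those of MG, LG and W2, and PL 6 lay within the range of EL. SCD rose by 1.77 on the log2 scale in PL vs MG (SE 0.51, limma adjusted p 0.0245) and fell by 1.84 in W2 vs PL (SE 0.51, 0.0158), and its value in PL vs EL was 1.10 (SE 0.51, 0.27). Without PL 2 the rise over MG was 1.07 and missed the threshold (adjusted p 0.064), and the fall after weaning was -1.15 and held it (0.0417). Leaving out MG 3 or MG 6 also ended the call in PL vs MG, with adjusted p values up to 0.0867.

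ELOVL6 (gene ID 100312970, chromosome 8, 112038670 to 112190079) had 3 of its 4 RefSeq transcripts in the table. Its sum was 5.00, 14.8 and 12.3 units in MG, 12.9, 10.6 and 16.2 in LG, and 15.0, 13.3 and 14.0 in EL. In PL it was 38.1, 44.8 and 22.7 units, and in W2 7.93, 15.7 and 11.3. The lowest PL value was above the highest value of any other stage, and PL 2 was not the highest of them. ELOVL6 rose by 1.75 on the log2 scale in PL vs MG (SE 0.38, limma adjusted p 0.0065) and fell by 1.55 in W2 vs PL (SE 0.38, 0.0087). In PL vs EL its value was 1.23 (SE 0.38, 0.090), and with median ratio scaling it was 1.57 and passed (0.0341), as it did without MG 1 (adjusted p 0.0397). Without PL 2 the calls in PL vs MG (1.66, adjusted p 0.0214) and W2 vs PL (-1.47, 0.0287) held.

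SREBF1 (gene ID 397308, chromosome 12, 60733967 to 60750951) was the member with the highest mean gene sum in MG, LG, EL and W2. Its sum was 156.5, 180.9 and 139.6 units in MG, 246.6, 207.5 and 239.6 in LG, and 284.9, 150.5 and 198.1 in EL. In PL it was 120.1, 119.1 and 80.8 units, and in W2 155.8, 212.3 and 177.2. The PL samples were the 3 lowest of the 15. SREBF1 fell by 0.96 on the log2 scale in PL vs EL (SE 0.23, limma adjusted p 0.0349) and rose by 0.78 in W2 vs PL (SE 0.23, 0.0217), and its value in PL vs MG was -0.59 (SE 0.23, 0.078). Without PL 2 the differences in PL vs EL and W2 vs PL were -1.05 and 0.87 and both calls held (adjusted p 0.0286 and 0.0259), but without PL 6 they were -0.77 and 0.59 and both were lost (0.088 and 0.072). The call in PL vs EL was also lost when MG 1, LG 1, LG 4, EL 3, EL 6 or W2 6 was left out (adjusted p up to 0.136), and that in W2 vs PL without W2 3 or W2 6 (up to 0.083). Without EL 3 the fall in PL vs MG passed (-0.59, adjusted p 0.0435). With median ratio scaling the value in PL vs EL was -0.62 (0.18), that in W2 vs PL was 0.036 (0.96), and that in PL vs MG changed its sign to 0.070 (0.91).

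INSIG1 (gene ID 403162, chromosome 18, 2885494 to 2898758), with 1 RefSeq transcript, was called in all 3 tested comparisons with PL on either scale. Its values were 7.73, 11.05 and 11.8 units in MG, 14.7, 12.8 and 11.4 in LG, and 14.5, 17.9 and 19.4 in EL. In PL they were 113.7, 73.7 and 30.6 units, and in W2 10.9, 13.1 and 12.9. The lowest PL sample stood above the highest sample of every other stage, and the stage means came in the order PL, EL, LG, W2 and MG, from 72.6 to 10.2 units. Neighbours below PL in this order overlapped in their samples. INSIG1 rose by 2.60 on the log2 scale in PL vs MG (SE 0.36, limma adjusted p 0.00063) and by 1.86 in PL vs EL (SE 0.36, 0.0135), and fell by 2.33 in W2 vs PL (SE 0.36, 0.00082). Without PL 2 these were 2.19, 1.45 and -1.91, all called (adjusted p 0.0010, 0.0179 and 0.0016). The calls in PL vs MG and W2 vs PL held under 25 of 25 alternatives each, with adjusted p up to 0.0497 and 0.0456. The call in PL vs EL held under 22 of 25. It was lost without EL 3 (1.74, adjusted p 0.067), with the stages compared alone and with the replicate block, with adjusted p up to 0.27.

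THRSP (gene ID 100512730, chromosome 9, 12479913 to 12484323), also with 1 RefSeq transcript, was low outside PL. Its values were 0.485, 1.66 and 1.90 units in MG, 1.56, 1.60 and 1.81 in LG, and 3.47, 0.594 and 2.91 in EL. In PL they were 22.8, 5.19 and 0.410 units, and in W2 1.23, 2.39 and 0.894. PL thus held the 2 highest values and also the lowest. The log2 fold change was 1.52 (SE 0.91) in PL vs MG and -1.37 (SE 0.91) in W2 vs PL, with limma adjusted p values of 0.24 and 0.26. Neither difference was called. Without PL 6 both were called: they were 2.74 and -2.59, with adjusted p values of 0.0147 and 0.0143, and without PL 2 they were 0.40 and -0.25.

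**Figure D2:**
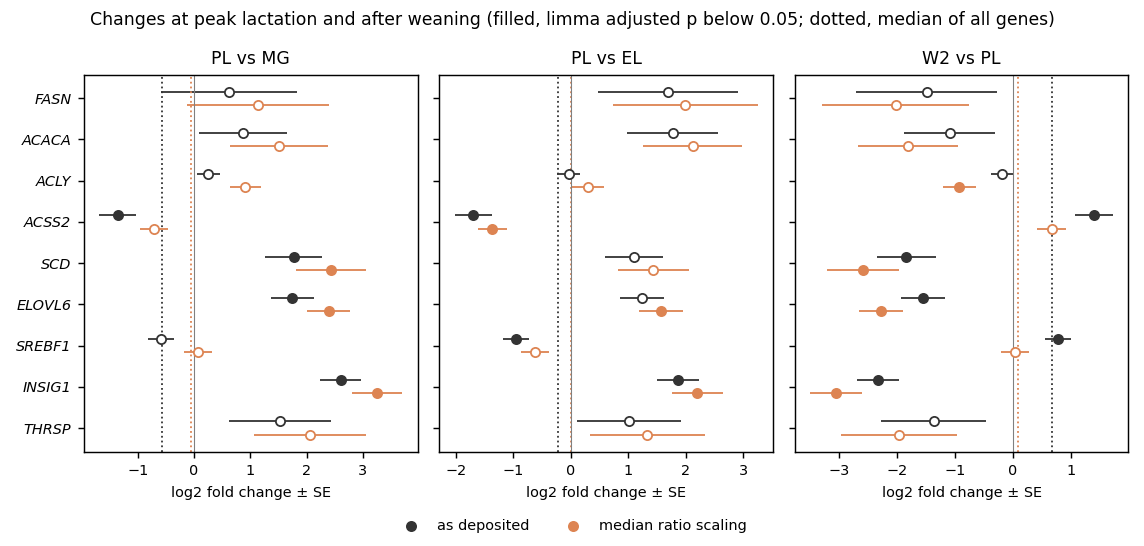
Log2 fold change with its SE for the 9 genes in 3 comparisons, as deposited (dark) and with median ratio scaling (orange); filled points have a limma adjusted p below 0.05, and dotted lines mark the median of all genes on each scale. INSIG1 is filled on both scales in all 3 panels, and SREBF1 in W2 vs PL moves from 0.78 to 0.036 with the scaling.

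As deposited, INSIG1 was thus called higher and ACSS2 lower at PL in all 3 comparisons. SCD and ELOVL6 were called higher than in MG and W2 but not than in EL. SREBF1 was called lower than in EL and W2 but not than in MG. The 3 comparisons share the PL samples, so the rise to PL and the fall after it are not independent of each other.

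The single transcripts were tested next, because 5 of the members were measured through more than 1. At this level 2 of the 17 transcripts passed limma's test in PL vs MG and in PL vs EL and 3 in W2 vs PL. In PL, INSIG1 NM_001244521.1 was higher than in MG and EL, where 0.531% and 0.162% of all transcripts were higher, and ACSS2 NM_001143695.1 was lower, where 3.75% and 0.536% were lower. In W2 vs PL the INSIG1 transcript fell, where 0.751% of all transcripts fell, and ACSS2 NM_001143695.1 and SREBF1 NM_214157.1 rose, where 6.38% rose. With median ratio scaling the INSIG1 transcript alone was called in W2 vs PL and in PL vs MG, and the same held for W2 vs PL without W2 3 or without W2 6. The SREBF1 call was also lost without PL 3 or PL 6, and the ACSS2 call in W2 vs PL without W2 2. In PL vs EL neither transcript was called without any 1 sample of MG, LG or W2, or without EL 3 or EL 6. Without EL 4 the only transcript called there was NM_214157.1, which was lower, and without PL 2 or PL 3 the INSIG1 call was lost. In PL vs MG the INSIG1 call stood without any 1 sample, whereas the ACSS2 call was lost without any 1 sample of LG, EL or W2 and without MG 1 or MG 3.

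SREBF1 was divided between 2 transcripts. NM_214157.1 stood at 55.9, 138.7 and 97.2 units in MG, 97.5, 143.3 and 79.4 in LG, 196.5, 58.6 and 154.0 in EL, 51.7, 21.3 and 17.7 in PL, and 111.9, 142.6 and 117.6 in W2. XM_021066226.1 stood at 68.3, 97.8 and 63.1 units in PL and 43.9, 69.7 and 59.5 in W2. The PL values of NM_214157.1 were the lowest 3 of the 15, whereas those of XM_021066226.1 overlapped W2. From PL to W2, NM_214157.1 rose by 2.17 on the log2 scale (SE 0.49, limma adjusted p 0.0198), and the value of XM_021066226.1 was -0.40 (SE 0.43, 0.62). NM_214157.1 made up 27.6 ± 13.5% of the gene sum in PL and 68.5 ± 2.95% in W2 (SD, n = 3 each), with 43.1, 17.9 and 21.9% in the PL samples and 71.8, 67.2 and 66.4% in those of W2. These shares did not overlap, and the exact two-sided permutation test gave p = 0.10, the smallest it can give here. In MG, LG and EL the share was 60.7 ± 21.9, 47.2 ± 19.2 and 61.9 ± 20.3%, with a wide spread between samples.

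SCD and ELOVL6 each had samples in which another transcript took over. SCD XM_021072070.1 held 91.4% of the gene sum in EL 3 and 92.4% in W2 3, against 3.93 to 34.7% in the other 13 samples, with 56.7 and 52.6 units. The gene sums of these samples were 62.1 and 56.9 units, against 116.6 and 138.1 in the other EL samples and 52.4 and 70.7 in the other W2 samples. For ELOVL6, XM_021100706.1 carried 10.6 units in LG 3, in which XM_021100705.1 was at 0.058, and 3.34 units in W2 2, and it was listed at 0 in the other 13 samples. XM_021100705.1 made up 57.9 to 100% of the sum in the 14 samples other than LG 3. The highest SCD and ELOVL6 transcripts on their own did not pass limma's test in W2 vs PL: SCD NM_213781.1 differed by -2.96 (SE 1.14, limma adjusted p 0.14) and ELOVL6 XM_021100705.1 by -1.79 (SE 1.00, 0.33).

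**Figure D3:**
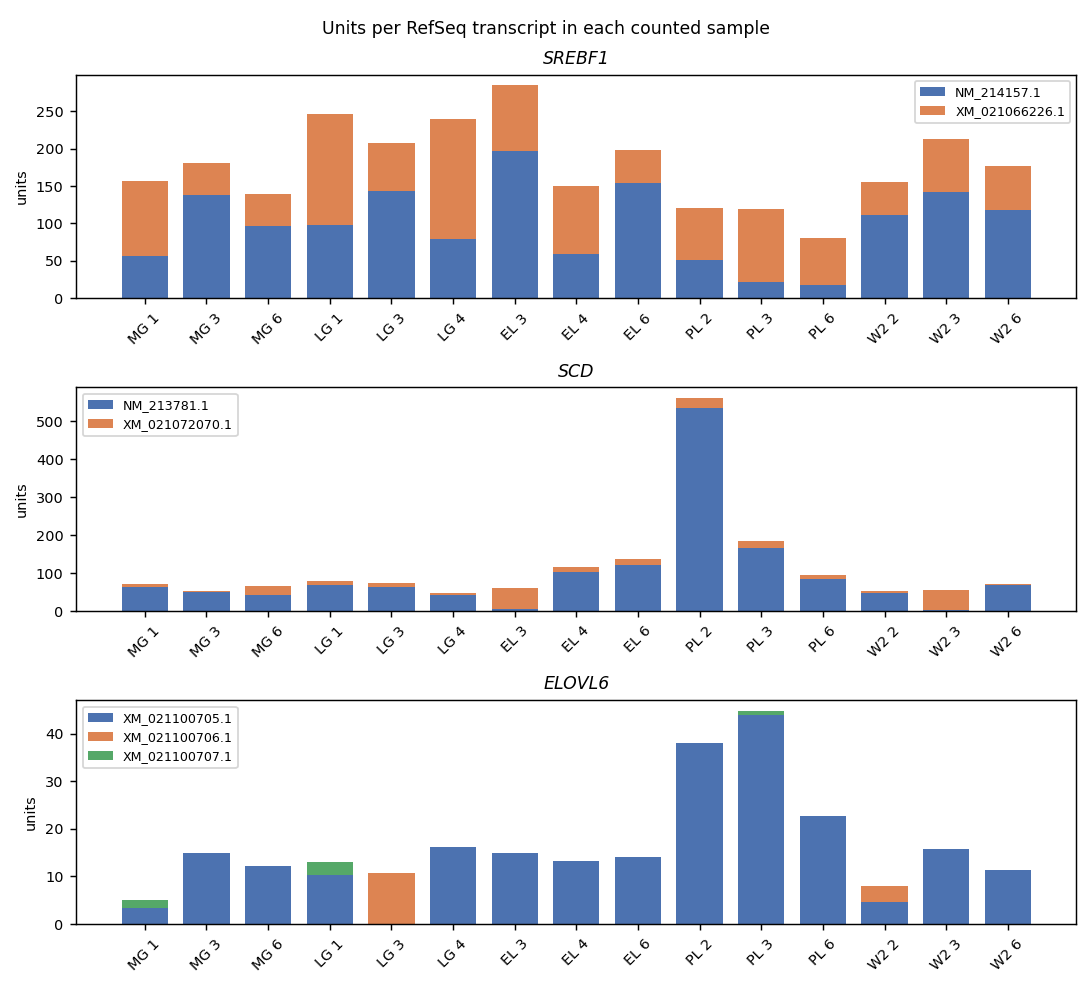
Units of each RefSeq transcript, stacked to the gene sum, for SREBF1, SCD and ELOVL6 in the 15 counted samples. The blue part of SREBF1 (NM_214157.1) is 17.7 to 51.7 units in PL and 111.9 to 142.6 in W2, and EL 3 and W2 3 differ from the other samples in the colour that fills the SCD bar.

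ACLY and ACSS2 were led by the same transcript in all 15 samples. ACLY XM_021066025.1 made up 40.0 to 68.2% of the gene sum over the 15 samples, and ACSS2 NM_001143695.1 made up 92.3 to 99.6%, with the lowest share in PL 2. Of the units in a sample, 14.6 to 21.8% belonged to 29047 transcripts that the authors assembled and that carry no gene name, so reads of a member may lie among them and its sum is a lower limit of the gene.

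The genes around the pathway were taken from 3 lists. The first list, carbon and NADPH supply, held 20 genes with a row of 21 (citrate transport, the pyruvate dehydrogenase complex, the citrate cycle and the pentose phosphate pathway). In W2 vs PL, 12 of its 20 genes rose and 0 fell, and in PL vs MG 0 rose and 11 fell, where 30.4% of all genes rose and 23% fell. Without PL 2 these counts were 12 and 0, and 0 and 10. Over all 26012 genes they were then 5958 and 1010, and 994 and 4338. With PL 2, the median log2 fold change of the list in W2 vs PL was 0.69, beside 0.68 over all genes. DLAT, a subunit of the pyruvate dehydrogenase complex, stood at 12.5, 14.0 and 11.6 units in PL and 25.0, 31.2 and 31.4 in W2, and rose by 1.17 on the log2 scale (SE 0.17, limma adjusted p 0.00053). IDH1, the cytosolic NADP-dependent isocitrate dehydrogenase, rose by 1.72 (SE 0.42, 0.0086), and PGLS, of the pentose phosphate pathway, by 1.06 (SE 0.17, 0.0011). In PL vs EL, where 3.85% of all genes fell, PDHB, CS and MDH2 fell by 0.95, 0.73 and 0.59, and without PL 2 the CS call was lost. These 3 calls in PL vs EL were lost with median ratio scaling, and 1 gene, IDH2, was higher there. On that scale 0 of the 20 genes rose and 2 fell in W2 vs PL (IDH2 and ME2), against 7.42% and 5.66% of all genes. In PL vs MG 1 was higher (IDH2) and 0 lower, against 5.04% and 5.97%.

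The second list, elongation, desaturation and accessory steps, had 20 genes with a row of 23. In W2 vs PL 3 rose, where 30.4% of all genes did, and 0 fell, with a list median of 0.38 beside 0.68 over all genes. The same 3 fell in PL vs MG, where 23% of all genes fell. They were HACD2 and HACD3, dehydratases of the elongation cycle, and SCD5, a further stearoyl-CoA desaturase. SCD5 was at 0.436, 1.89 and 1.08 units in PL and 2.90, 5.43 and 4.78 in W2, and rose by 1.64 on the log2 scale (SE 0.38, limma adjusted p 0.0067), where SCD fell. This rise of SCD5 held with median ratio scaling (1.10, adjusted p 0.0413), and the rises of HACD2 and HACD3 were not called on that scale. On that scale 4 genes of the list fell in W2 vs PL, where 5.66% of all genes fell. Among them were FADS2, the delta-6 desaturase, and ELOVL7, a fatty acid elongase, which fell by 1.11 and 0.98. As deposited their values were -0.39 (adjusted p 0.35) and -0.25 (0.63). The 4 genes that fell on the median ratio scale were higher in PL vs MG there and 0 were lower, against 5.04% and 5.97% of all genes. In PL vs EL, as deposited, HACD2 alone was called, where 3.85% of all genes fell. It fell by 0.89 (SE 0.22, limma adjusted p 0.0391). With median ratio scaling FADS2 and ELOVL7 were higher in PL vs EL and HACD2 was lower, against 2.54% and 2.71%. Without PL 2, as deposited, 2 genes of the list rose and 3 fell in W2 vs PL, and 3 rose and 1 fell in PL vs MG. Over all 26012 genes these counts were 5958 and 1010, and 994 and 4338.

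The third list, control of the pathway, had a row for 27 of 27 genes. In W2 vs PL 11 rose, where 30.4% of all genes did, and 0 fell, with a list median of 0.68, and in PL vs MG 0 rose and 8 fell, where 23% of all genes fell. Without PL 2 these counts were 8 and 0, and 1 and 4. Over all 26012 genes they were then 5958 and 1010, and 994 and 4338. CEBPA, a transcription factor of lipogenic cells, stood at 5.40, 13.6 and 7.46 units in PL, 25.9, 35.0 and 26.7 in MG and 38.7, 39.7 and 42.5 in W2, with no overlap between PL and either. It fell by 1.76 on the log2 scale in PL vs MG (SE 0.32, limma adjusted p 0.0024) and by 1.39 in PL vs EL (SE 0.32, 0.0274), and rose by 2.23 in W2 vs PL (SE 0.32, 0.00050). CEBPA kept these calls with median ratio scaling (-1.12, -1.07 and 1.51, adjusted p 0.0130, 0.0297 and 0.0023), and without PL 2 it was not called in PL vs EL. NFYB, a subunit of the NF-Y factor that acts beside SREBP, rose by 1.21 in W2 vs PL (SE 0.23, 0.0027). PPARG, a nuclear receptor of lipid storage, was among the 11 that rose; it was listed at 0 in PL 3 and PL 6, and also in MG 3, and stood at 4.88 units in PL 2 and 8.42 to 10.5 in W2, so no fold change is given for it.

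SREBF2, the sterol-directed relative of SREBF1, is a gene of the third list on which the 2 scales differed in their calls. It stood at 20.2, 34.2 and 26.3 units in PL, 24.3, 29.1 and 26.4 in MG and 30.6, 31.1 and 31.2 in W2. As deposited its log2 fold change was -0.013 in PL vs MG (limma adjusted p 0.99) and 0.23 in W2 vs PL (0.36), and with median ratio scaling it was 0.64 (0.0032) and -0.50 (0.0104). SREBF2 was chosen after its values were seen, as were FADS2 and ELOVL7. On the median ratio scale the third list counted 2 of 27 genes higher and 4 lower in W2 vs PL, against 7.42% and 5.66% of all genes. In PL vs MG it counted 4 higher and 1 lower, against 5.04% and 5.97%. In none of LG vs MG, EL vs LG and W2 vs MG was a gene of the 3 lists called as deposited.

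**Figure D4:**
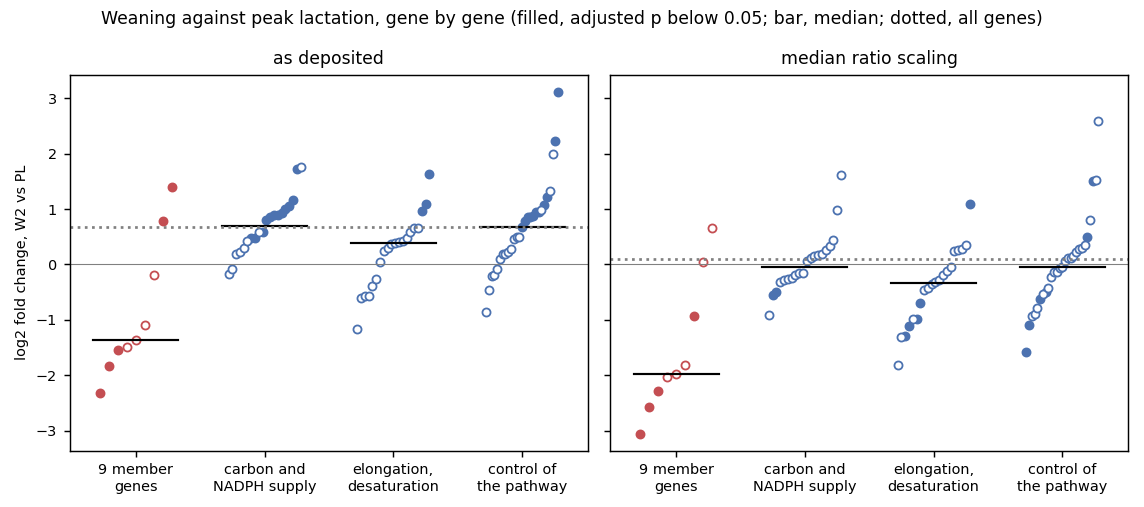
Log2 fold change of W2 against PL for each of the 9 members (red) and each gene of the 3 lists (blue), as deposited at the left and with median ratio scaling at the right; filled points have a limma adjusted p below 0.05, bars are group medians and dotted lines the medians of all genes. The members' median lies at -1.37 and -1.97 on the 2 scales, while the lists' medians lie at 0.38 to 0.69 and at -0.332 to -0.0434.

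Some markers of the cell types in the tissue were called as well, to be read beside the shares of all genes. As deposited, 30.4% of all genes rose and 2.48% fell in W2 vs PL. In PL vs MG 2.23% rose and 23% fell, and in PL vs EL 0.777% rose and 3.85% fell. With median ratio scaling these shares were 7.42% and 5.66%, 5.04% and 5.97%, and 2.54% and 2.71%. Without PL 2, as deposited, the counts over all 26012 genes were 5958 and 1010, 994 and 4338, and 967 and 991. The 6 milk protein genes all fell in W2 vs PL and 5 of them rose in PL vs MG, with sums of 91237 to 285004 units in PL and 5781 to 8140 in W2. The 6 luminal epithelial markers (KRT8, KRT18, KRT19, EPCAM, CDH1, ELF5) added up to 837 units in PL 2 and 1315 to 1992 in the other 14 samples, and 1 of 6, CDH1, rose in W2 vs PL. CDH1 was not called with median ratio scaling, and 1 of 6, EPCAM, fell there on that scale. Of 10 adipocyte markers 6 had a row, and ADIPOQ, PLIN1, RETN and PCK1 were not analysed here. Their sum was 327 to 458 units in PL and 502 to 771 in the other stages, and most of it was FABP4, which fell by 0.99 on the log2 scale in PL vs MG (SE 0.20, limma adjusted p 0.0048). FABP4 was also called lower in PL in the other two comparisons, and with median ratio scaling it was called in none of the 3. LEP, which encodes leptin, went the other way: it stood at 1.56, 15.8 and 14.6 units in PL and at 0 to 0.622 in the other 12 samples. In PL vs EL, CIDEC, PLIN4 and CFD also had positive log2 fold changes (1.44, 0.63 and 0.36) and LIPE a negative one (-0.18), none called. LIPE was called higher in W2 than in PL (0.88, limma adjusted p 0.0249), but not with median ratio scaling or without PL 2. The adipocyte median was 0.495 in PL vs EL, -0.113 in PL vs MG and 0.426 in W2 vs PL. Over all genes it was -0.22, -0.569 and 0.678. The 4 stromal markers added up to 425 to 985 units in PL and 1180 to 2294 in W2, and 3 of them rose in W2 vs PL and fell in PL vs MG. Of these, COL3A1 alone was called with median ratio scaling or without PL 2. The 4 myoepithelial markers ranged from 755 to 1885 units in PL and from 863 to 1663 in the other stages, with 0 called as deposited. On the median ratio scale 3 of them were higher in PL vs EL (ACTA2, KRT5, OXTR), and ACTA2 and OXTR were higher in PL vs MG and lower in W2 vs PL. Without PL 2, as deposited, the same 3 were higher in PL vs EL, KRT5 was higher in PL vs MG, and KRT5 and OXTR were lower in W2 vs PL. The 2 endothelial and 3 leukocyte markers were at 62.8 to 141 and 5.44 to 27.9 units over all samples, with 1 of each, VWF and CD3E, called higher in W2 than in PL. Neither was called there with median ratio scaling or without PL 2. The part of these shifts in the changes of the members was not tested.

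The pattern of FASN across the 15 samples was compared with that of 5740 other annotated genes with a mean of at least 10 units. The genes most like it, by Pearson's r on log2(gene sum + 0.5), were PAPOLA (0.78), CRELD2 (0.75), TMEM243 (0.66), R3HDM4 (0.65) and SEC23B (0.65), given as a description of these samples, which share the stages. PAPOLA, a poly(A) polymerase, had 44.1 units in PL 6, 37.9 in PL 2, 20.6 in W2 6 and 20.4 in MG 1, the 4 samples with the most FASN, and 6.43 to 17.4 in the other 11. None of these 5 genes belongs to the lists above.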

How the data were processed

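RNA-seq values of 61773 transcripts in 30 sow mammary samples were used. The authors used FastQC and Trimmomatic on the reads, HISAT2 for alignment to Sscrofa11.1, and StringTie for transcript assembly and FPKM. They kept transcripts that reached an FPKM of 0.5 in at least 1 stage, so lower single values remain. The deposited values are called FPKM but add up as TPM values do, and were treated as TPM. Whether a correction for unwanted variation (RUVs) is in them is not stated in the sources used here.

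Gene sums over annotated transcripts (32688 rows matched, 38 other named rows and 29047 assembled rows did not) were tested as log2(sum + 0.5) with limma 3.58.1 in R 4.3.3. All 5 stages stood in 1 fit with trended variance, with Benjamini-Hochberg adjustment over 26012 genes and loci, in 6 comparisons. A call is an adjusted p below 0.05. Fold changes on this scale understate the change of low genes. Samples were called near-identical below a median difference of 5% over transcripts of at least 10 units. Nothing in the labels ties samples to batches. The fit was tested on simulated data. Alternatives were other pseudocounts (0.1, 1), a filter (1 unit in 3 samples), median ratio scaling over genes with at least 10 units in every sample, quantile normalization, the stages compared alone, a replicate block, other treatments of the near-identical samples, the highest transcript, the fold rule of the study (2 on the log2 scale), and each counted sample left out.

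The members and lists were chosen with earlier results of these data known. The genes named are all members, at most 3 called genes per list and comparison by size of change, and the 5 genes most like FASN; exceptions are marked. Promoter motifs were planned and not searched, as no sequence was used here.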

Additional observations from a re-analysis of the deposited data

How the results depend on the processing

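The number of member genes called kept within 1.5 times its value, and no call changed its direction, except as follows. In PL vs EL (3 called) it was 0 with the stages compared alone, 0 with the replicate block, 0 under the study's fold rule, 6 with the near-identical samples counted once and 8 with all 6 samples per stage, and it ranged from 0 to 3 when single samples were left out, with 0 without EL 3. In W2 vs PL (5 called) it was 3 with quantile normalization, 1 with the stages alone, 9 with all 6 samples, 3 with the highest transcript and 1 under the fold rule. In PL vs MG (4 called) it was 1 with the stages alone, 2 with the replicate block, 8 with all 6 samples and 1 under the fold rule. In LG vs MG (0 called) it was 2 with all 6 samples. For single transcripts, PL vs EL (2 called) gave 0 with the stages alone, 1 with the block, 0 under the fold rule, 8 with all 6 samples and 0 to 2 with a sample left out; W2 vs PL (3 called) gave 1 with median ratio scaling, 1 with quantile normalization, 0 with the stages alone, 8 with all 6 samples and 1 to 3 with a sample left out; PL vs MG (2 called) gave 1, 1, 0, 1 with the block, 1 under the fold rule, 10 with all 6 samples and 1 to 3 with a sample left out. LG vs MG and EL vs LG (0 called) gave 4 and 5 with all 6 samples. Over all 26012 gene sums the counts moved too. With all 6 samples, 1203 calls became 10113 in PL vs EL and 8543 became 16471 in W2 vs PL. In PL vs MG 6562 became 15114, and in LG vs MG 3 became 3687. With the near-identical samples counted once, PL vs EL gave 4966. With the stages alone PL vs EL, W2 vs PL and PL vs MG gave 43, 2960 and 1757. Under the fold rule they gave 272, 1357 and 1029. The block gave 226 in PL vs EL and 2986 in PL vs MG. Fits of all 6 samples treat copies as replicates and fits of the stages alone use fewer samples; for the other settings the cause was not tested. The replicate numbers do not pair the samples: deviations from the stage means correlated between -0.14 and 0.17 over 19 pairs with the same number (median -0.024) and between -0.19 and 0.26 over 71 other pairs. The read depth that the study lists per sample was not used, and limits were set from the spread between samples alone.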
